A study of Mus musculus with 3 samples.

Results

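The genes described here encode 9 endocytic and sorting receptors, chosen by gene name: Lrp1, Lrp1b, Lrp2 and Lrp4 of the low-density lipoprotein (LDL) receptor family, and Sorl1, Sort1, Sorcs1, Sorcs2 and Sorcs3, which share a VPS10 domain. They are 9 of the 47593 gene rows measured, and each of the 9 names was found. RNA was sequenced from primary neurons of wild-type (WT) mouse hippocampus in 3 libraries, replicates 1 to 3 of 1 group. The culture medium was Neurobasal, supplemented with B27 at 10% and GlutaMAX at 1%, and cells were held at 37 °C under 5% CO2. They were given fresh neural medium containing B27 and penicillin-streptomycin; the design text of the series names a treatment time of 24 h. The design also names neurons given apoE particles, which were not analysed here, so no treatment was compared. The labels name no age, sex or strain, and they leave unsaid whether each library is a culture or animal of its own, so p-values and SDs measure the spread between these libraries, which may be technical.

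Receptors of the LDL receptor family bind lipoproteins, proteases with their inhibitors, and other ligands outside the cell, carry them into endosomes and return to the surface. Their tails also bind signalling adaptors. In the brain they take up apoE, the main lipid carrier, and clear amyloid beta. VPS10 receptors mostly work inside the cell, where they steer cargo between the Golgi, endosomes and the surface; they bind neurotrophins and their precursors, progranulin and the amyloid precursor protein. Sorl1 has both a VPS10 domain and LDL receptor repeats, and is counted with the VPS10 genes here.

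The deposited values are log2 expression of a kind that pulls library differences of scarce genes toward 0, so reads were recovered from them. The sum over genes was 18780578 recovered reads in replicate 1, 18683959 in replicate 2 and 18885652 in replicate 3. A level is given as CPM per kilobase, that is reads per 1000000 recovered reads and per 1000 bases of annotated exon, so that genes of different length can be compared. Marker genes were checked in the same libraries, where 59.2% of all protein coding genes were detected at 1 CPM or more in every library. All 10 neuron markers were detected at 1 CPM or more in every library, led per kilobase by Mapt (270 ± 5.23 CPM per kilobase, SD, n = 3) and Tubb3 (261 ± 12.9). Astrocyte markers were present too, 7 of 8, led by Slc1a3 (115 ± 1.10) and Aldoc (68.6 ± 2.86), and so were 6 of 6 progenitor markers, led by Fabp7 (497 ± 18.3) and Vim (54.8 ± 2.83). Both lists also held low genes. The lowest astrocyte markers were S100b (1.72 ± 0.34) and Gjb6 (0.09 ± 0.05), which was not detected. The lowest progenitor markers were Hes5 (2.75 ± 0.37) and Pax6 (1.71 ± 0.09). Whether the lists tell astrocytes from progenitors here was not tested. The summed astrocyte markers lay at 1804 to 1825 CPM and the summed progenitor markers at 1041 to 1082 CPM over the libraries. Microglial markers summed to 7.77 to 8.83 CPM and endothelial ones to 5.14 to 5.43 CPM. Of 9 microglial markers 2 were detected, Cd68 (3.11 ± 0.61 CPM) and C1qa (1.79 ± 0.54 CPM), and of 6 endothelial ones 1, Kdr (4.03 ± 0.21 CPM), while Cldn5 had no reads. Of 8 choroid plexus and ependyma markers 3 were detected, with a sum of 21.2 to 22.7 CPM. Markers of excitatory and of inhibitory neurons were detected in 6 of 6 cases each, those of oligodendrocyte precursors in 4 of 5, of oligodendrocytes in 3 of 6 and of mural cells and fibroblasts in 4 of 6. In RNA from a whole culture, fewer cells of a type and less RNA per cell cannot be told apart, and the part of each cell type in the levels below was not tested.

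Start regions are shown for the members that RefSeq lists on build GRCm38.p6, because they differ widely in CpG content, most of all between Sorcs1 and Sorcs3. RefSeq windows of 300 bases, 250 before to 50 after the start site, were found for 5 of the 9 members. Printed are 200 bases of each, from 250 to 51 bases before the start site, 5′ to 3′ on the gene's own strand, with each CpG in capitals.
Lrp1, chr10:127621199-127621398, minus strand: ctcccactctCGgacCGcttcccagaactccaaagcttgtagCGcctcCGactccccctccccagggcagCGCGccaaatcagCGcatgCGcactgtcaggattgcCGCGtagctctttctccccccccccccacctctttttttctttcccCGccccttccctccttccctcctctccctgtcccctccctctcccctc
Lrp2, chr2:69586080-69586279, minus strand: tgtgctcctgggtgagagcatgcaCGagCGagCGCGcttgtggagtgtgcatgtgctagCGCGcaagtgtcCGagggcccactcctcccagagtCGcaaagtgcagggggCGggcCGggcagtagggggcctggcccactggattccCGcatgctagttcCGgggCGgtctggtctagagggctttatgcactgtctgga
Sorl1, chr9:42124348-42124547, minus strand: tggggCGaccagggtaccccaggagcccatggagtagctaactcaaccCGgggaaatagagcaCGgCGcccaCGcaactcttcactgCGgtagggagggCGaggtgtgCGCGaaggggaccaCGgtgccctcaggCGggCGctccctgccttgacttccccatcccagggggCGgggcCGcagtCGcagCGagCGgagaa
Sorcs1, chr19:50678697-50678896, minus strand: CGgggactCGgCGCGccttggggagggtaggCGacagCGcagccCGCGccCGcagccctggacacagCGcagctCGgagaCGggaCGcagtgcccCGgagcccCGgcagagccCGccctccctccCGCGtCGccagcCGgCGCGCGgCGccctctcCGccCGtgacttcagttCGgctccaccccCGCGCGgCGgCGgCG
Sorcs3, chr19:48205775-48205974, plus strand: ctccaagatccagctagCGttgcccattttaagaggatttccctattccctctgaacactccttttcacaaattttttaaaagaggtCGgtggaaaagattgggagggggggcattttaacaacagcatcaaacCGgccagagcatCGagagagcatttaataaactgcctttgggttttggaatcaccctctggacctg
Over the whole window, Sorcs1 held 50 CpGs, more than 99.1% of the 32851 windows in the table, whose median was 7. Sorl1 held 37, Lrp2 20, Lrp1 16 and Sorcs3 9. A second Sorl1 start site, inside the gene, also held 9. The GC box GGGCGG was found on either strand in each of the 5 main windows, and in 35.7% of all windows. TATAAA was found in none of them, against 13.6% of all windows. CCAAT was found in the Sorcs3 window alone among the 5, against 37.4% of all windows. CANNTG stood in the windows of Lrp2, Sorl1 and Sorcs1 (72.3% of all windows) and TGACG in that of Sorl1 (20.8%). These matches describe the letters of the windows and show no bound factor.

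All 9 receptor genes were detected at 1 CPM or more in every library, where 59.2% of protein coding genes and 29.4% of all gene rows were. Their levels per kilobase spanned a wide range. Sort1 and Lrp1 stood well above the median detected protein coding gene (6.65 ± 0.03 CPM per kilobase over 12472 genes), Sorcs2 stood above it by less, and the other 6 lay below. The order ran Sort1, Lrp1, Sorcs2, Sorcs3, Sorcs1, Sorl1, Lrp4, Lrp1b, Lrp2. The median of the 9 was 3.92 ± 0.18 CPM per kilobase. The plots of levels by library and of their place among coding genes show these values.

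**Figure D1:**
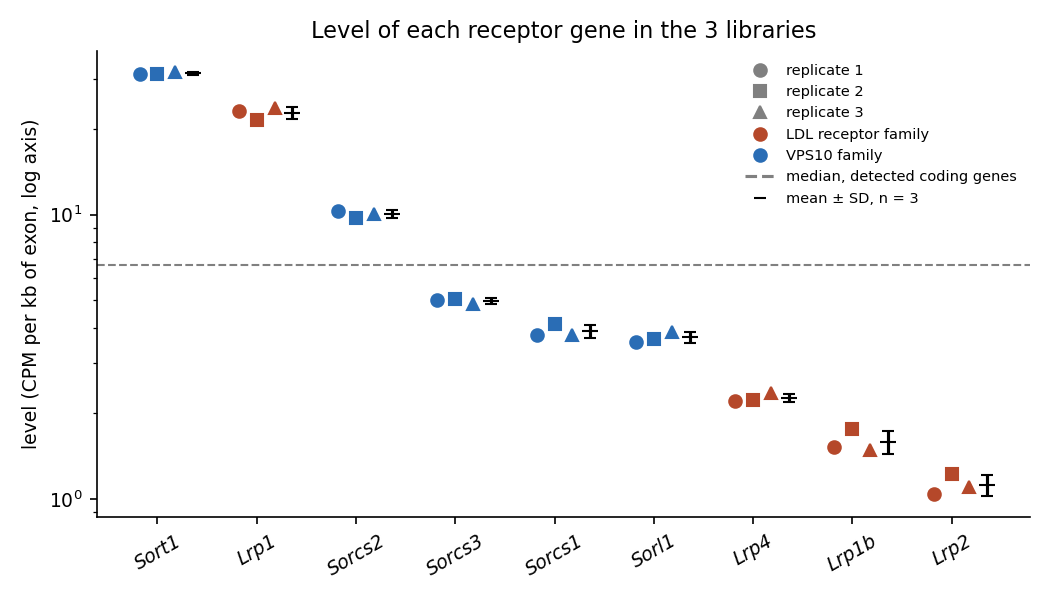
Level of each receptor gene (CPM per kilobase of exon from recovered reads, log axis) in replicates 1 to 3, with the mean and SD at the right of each gene and the median detected protein coding gene as a dashed line. Sort1, Lrp1 and Sorcs2 lie above the line in every library and the other 6 genes below it.

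Among the LDL receptor family, Lrp1, the large receptor that takes up apoE and many other ligands, had 7723, 7139 and 7908 reads in replicates 1, 2 and 3. Per kilobase these are 23.2, 21.6 and 23.6 CPM, a mean of 22.8 ± 1.09 (SD, n = 3; exact Poisson 95% interval of the pooled level 22.5 to 23.1, counting error only). The deposited log2 values were 12.90, 12.84 and 12.92. Replicate 2 was lowest on both scales. The level exceeded that of 82.5% of detected protein coding genes. Lrp1 (ENSMUSG00000040249) lies on the minus strand of chromosome 10, from 127538161 to 127621148 in GRCm38, with 89 exons in its longest transcript.

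Lrp1b, the closest relative of Lrp1 and a slower endocytic receptor, had 677, 779 and 666 reads, or 1.52, 1.75 and 1.48 CPM per kilobase (mean 1.58 ± 0.15). Replicate 2 was highest here, in contrast to Lrp1. Lrp1b exceeded 18.7% of detected protein coding genes. The gene (ENSMUSG00000049252) runs over 2058379 bases of chromosome 2, from 40595246 to 42653624. Only 1.15% of that span is exon, against 21.3% for Lrp1.

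Lrp2 encodes megalin, an uptake receptor of absorptive epithelia, which in the developing forebrain also binds sonic hedgehog. It was lowest of the 9, with 325, 380 and 347 reads, or 1.04, 1.22 and 1.10 CPM per kilobase (mean 1.12 ± 0.09). Replicate 2 was highest and replicate 1 lowest. Still, 14.0% of detected protein coding genes lay below it. The gene (ENSMUSG00000027070) lies on chromosome 2 from 69424340 to 69586065.

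Lrp4, the agrin receptor of the neuromuscular junction, which is also made in brain, had 436, 437 and 467 reads. These are 2.21, 2.23 and 2.35 CPM per kilobase, a mean of 2.26 ± 0.08. Replicate 3 was highest, by little. The gene (ENSMUSG00000027253) is the shortest of the 9 in the genome, from 91457511 to 91513779 on chromosome 2, the chromosome that also holds Lrp1b and Lrp2.

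Of the summed level of the 4 LDL receptor family genes, Lrp1 made up 82.1 ± 1.32%, Lrp4 8.15 ± 0.22%, Lrp1b 5.72 ± 0.73% and Lrp2 4.03 ± 0.45%. The share of Lrp1 was 83.0%, 80.6% and 82.7% in replicates 1, 2 and 3.

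Sort1, which encodes sortilin, a receptor of progranulin, neurotensin and neurotrophin precursors, was the highest of the 9 per kilobase. It had 4424, 4414 and 4537 reads, or 31.1, 31.2 and 31.7 CPM per kilobase (mean 31.4 ± 0.33; exact Poisson 95% interval of the pooled level 30.8 to 31.9). The 3 libraries nearly coincide, with deposited log2 values of 12.11, 12.12 and 12.13. The level exceeded that of 87.9% of detected protein coding genes. Sort1 (ENSMUSG00000068747) lies on chromosome 3 from 108284082 to 108361511, on the plus strand. Its reads exceeded those of Lrp1 in no library; it leads per kilobase because its exons sum to 7569 bases and those of Lrp1 to 17717.

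Sorl1 encodes SORLA, which returns the amyloid precursor protein to the Golgi and is linked to Alzheimer's disease. It had 755, 774 and 828 reads, which are 3.55, 3.66 and 3.87 CPM per kilobase (mean 3.69 ± 0.16). Replicate 3 was highest. Of detected protein coding genes, 34.6% lay below it. Sorl1 (ENSMUSG00000049313) lies on chromosome 9 from 41964720 to 42124297.

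The SorCS genes encode sorting receptors that are made mainly in neurons. Sorcs2, which pairs with the neurotrophin receptor p75 in binding neurotrophin precursors, led them with 1708, 1599 and 1669 reads, or 10.3, 9.72 and 10.0 CPM per kilobase (mean 10.0 ± 0.30). Sorcs3, known for its role in synaptic depression in the hippocampus, had 669, 674 and 652 reads, or 5.00, 5.06 and 4.84 CPM per kilobase (mean 4.97 ± 0.11). Sorcs1, which affects the sorting of the amyloid precursor protein and of neurexin, had 597, 650 and 603 reads, or 3.77, 4.12 and 3.78 CPM per kilobase (mean 3.89 ± 0.20). Sorcs2 lay above the other two in every library, and Sorcs3 above Sorcs1. Their percentiles among detected protein coding genes were 62.1 for Sorcs2, 41.7 for Sorcs3 and 35.9 for Sorcs1. Sorcs1 (ENSMUSG00000043531; 50143299 to 50678646) and Sorcs3 (ENSMUSG00000063434; 48206025 to 48805505) both lie on chromosome 19, and Sorcs2 (ENSMUSG00000029093) on chromosome 5 from 36017180 to 36398139. Of the start regions, the 200 bases printed above hold 33 CpGs for Sorcs1 and 4 for Sorcs3. On the log2 scale used below, Sorcs1 minus Sorcs3 was −0.32, and −0.07 with coding length. A relation of CpG content to level was not tested.

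Sort1 made up 58.1 ± 0.31% of the summed level of the 5 VPS10 genes. Sorcs2 made up 18.6 ± 0.57%, Sorcs3 9.21 ± 0.25%, Sorcs1 7.21 ± 0.39% and Sorl1 6.85 ± 0.27%. Both sets of members thus had 1 leading gene, with a larger share among the 4 LDL receptor family genes. These shares leave out the other genes of that family, of which Lrp11 (44.6 CPM per kilobase) and Lrp3 (24.8) lay above Lrp1 (22.8).

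**Figure D2:**
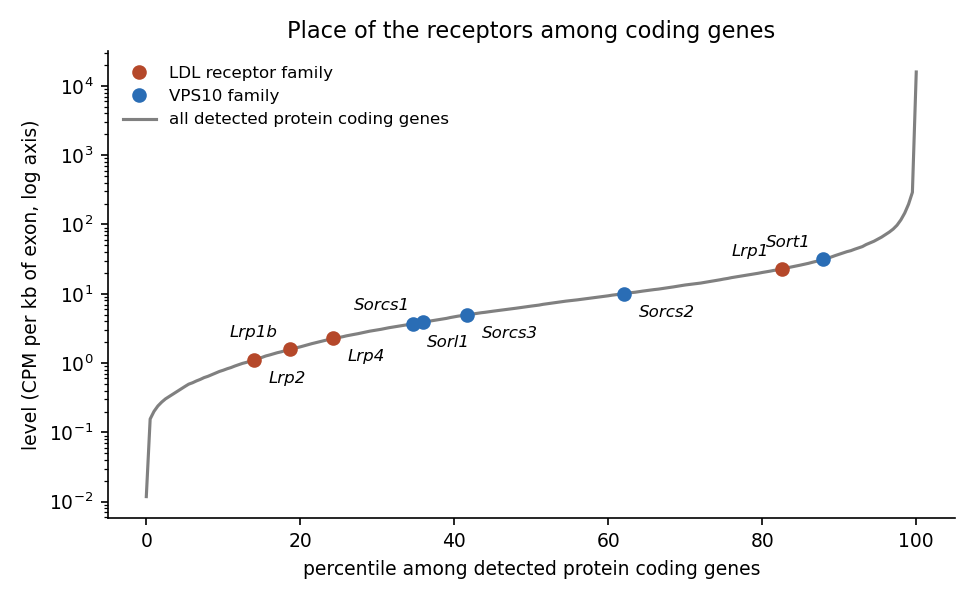
Mean level of the 9 receptor genes (CPM per kilobase, log axis) on the curve of all 12472 detected protein coding genes ordered by level (percentile on the x axis). The receptors run from the 14.0 percentile for Lrp2 to the 87.9 percentile for Sort1.

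The members were then compared with each other within each library, as the difference of log2(CPM per kilobase + 0.5), taken from deposited values and again from recovered reads. A pair was said to differ beyond its spread where all 3 libraries gave the same sign and the mean was over 2 SD on both scales. This held for 35 of 36 pairs. The share of pairs of other genes that meet this rule was not taken, so the count shows nothing particular to the receptors. Sort1 lay above Lrp1 by 0.45 ± 0.04 on deposited values (SD, n = 3; SD 0.06 in recovered reads), a 1.37-fold ratio, and Lrp1 lay above Sorcs2 by 1.15 ± 0.03 (SD 0.04 in recovered reads). The widest pair was Sort1 and Lrp2, with a difference of −4.30 ± 0.01 for Lrp2 minus Sort1 (SD 0.08 in recovered reads). Within the LDL receptor family, Lrp1 exceeded Lrp4 by 3.08 ± 0.04, Lrp1b by 3.48 ± 0.06 and Lrp2 by 3.85 ± 0.05.

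With exon length, Sorl1 and Sorcs1 were the pair that did not differ beyond their spread. The difference, Sorl1 minus Sorcs1, was −0.07 ± 0.02 on deposited values and −0.07 ± 0.09 in recovered reads, where 1 library had the other sign. With the longest transcript as length, or without replicate 3, all 36 pairs differed beyond their spread. With coding length Sorl1 lay below Sorcs1 by more (−0.51), and Sorcs1 and Sorcs3 were the pair that did not differ (Sorcs1 minus Sorcs3 −0.07 ± 0.01 on deposited values and −0.07 ± 0.05 in recovered reads). With exon length, every other pair of neighbours in the order differed beyond its spread. With 0.5 added, the closest was Sorcs3 over Sorcs1 by 0.32 ± 0.01 (SD 0.05 in recovered reads). Next came Lrp1b over Lrp2 by 0.36 ± 0.01 (SD 0.05 in recovered reads). The added 0.5 narrows differences that involve low genes. With nothing added, Lrp1b minus Lrp2 was 0.50, wider than Lrp1 minus Sort1 at −0.46, and Lrp2 minus Sort1 was −4.81. With 3 libraries the two-sided exact sign-flip permutation test cannot go below p = 0.25, which was its value for the 36 pairs (0.25 after Benjamini-Hochberg adjustment over them). The order of the 9 was the same with the longest annotated transcript or the coding length in place of the exon sum. The sizes were not: with coding length Sort1 exceeded Lrp1 by more (−1.62 for Lrp1 minus Sort1), and Lrp1 exceeded Sorcs2 by only 0.22.

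**Figure D3:**
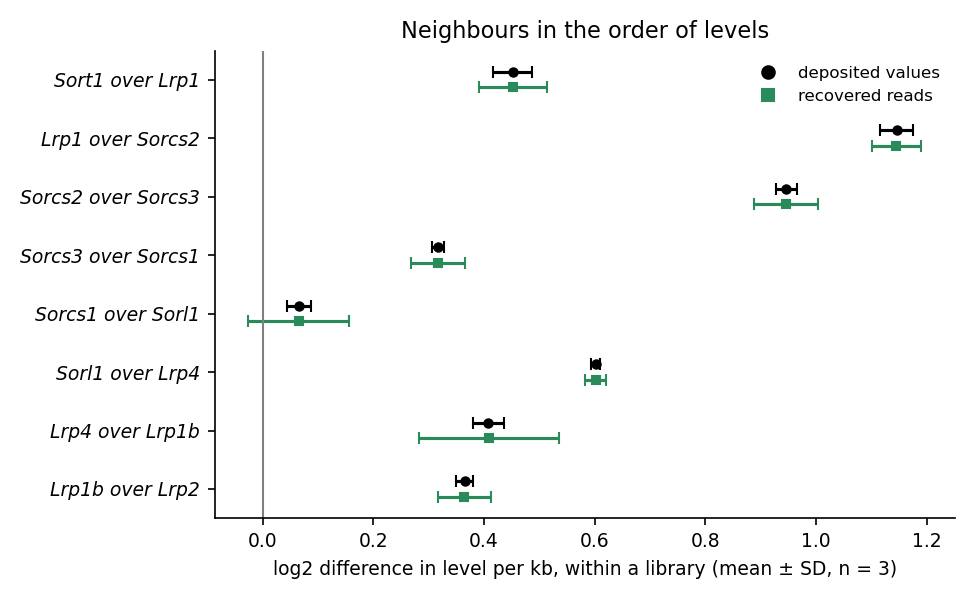
Within-library log2 difference in level per kilobase (mean ± SD, n = 3) between each receptor gene and the next lower one, from deposited values (circles) and recovered reads (squares). The bar of Sorcs1 over Sorl1 reaches across 0 in recovered reads, whereas those of the other 7 neighbours do not.

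Summed per kilobase, the 4 LDL receptor family genes reached 28.0, 26.8 and 28.6 CPM in replicates 1, 2 and 3, and the 5 VPS10 genes 53.8, 53.8 and 54.3 CPM. The log2 ratio of the first sum to the second was −0.96 ± 0.03 on deposited values (SD, n = 3; 0.04 in recovered reads; two-sided exact permutation p = 0.25, the smallest possible). The ratio of the medians was −1.37 ± 0.01 (exact permutation p = 0.25). The 13 other LDL receptor family genes listed below were not in the sum. They were led by Lrp11 (44.6 CPM per kilobase), Lrp3 (24.8) and Vldlr (20.9), so whole families are not compared here. Among the members alone, VPS10 genes were higher in sum per kilobase in 3 of 3 libraries, by 1.94-fold, over unequal numbers of genes. Without division by length the direction turned: the LDL receptor family genes summed to 467.5 to 497.1 CPM and the VPS10 genes to 434.1 to 438.9 CPM, a log2 ratio of 0.15. Without Lrp1 and Sort1 the ratio was −2.19, and with coding length −1.92.

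The 9 genes share features of the genome that the choice of names did not use. All 9 are longer than the median protein coding gene, which spans 17407 bases with 6 exons in its longest transcript and 1173 coding bases. Their coding sequences run from 2574 bases for Sort1 to 13980 for Lrp2, and those of Lrp1, Lrp1b and Lrp2 are each longer than 99.8% of 21923 protein coding genes. In genomic span the order is different. Lrp1b, Sorcs3, Sorcs1 and Sorcs2 span 2058379, 599481, 535348 and 380960 bases, and 98.2% or more of protein coding genes are shorter than each of them, with 1.15% to 2.31% of the span in exons. Sort1 and Lrp1, the highest genes, span 77430 and 82988 bases. Lrp4 has the shortest span, 56269 bases, at rank 7 in level, and the long Sorcs2 has rank 3. A relation of span to level was not tested. Annotated genes that overlap the exons of a member could share reads, and the sources used here do not say if strand was used in counting. Those with shared exon bases had few reads: Gm16214 over Sorl1 had 1 read in all, Gm12523 over Sort1 had 1 and Gm27348 over Lrp1b had none, while Gm45352, which overlaps Sorcs1, was not used here. The shared bases were 0.416% of the exons for Lrp1b and up to 4.466% for Sort1. How reads on shared bases were counted is not stated, so these counts do not show whether a member lost reads.

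Replicate libraries given the same medium were compared to see how steady each receptor was. The range between the lowest and the highest library, after scaling by size factors, was 1.03-fold for Sort1, 1.05-fold for Sorcs3 and for Sorcs2, 1.07-fold for Lrp4, 1.09-fold for Lrp1, 1.10-fold for Sorl1, 1.11-fold for Sorcs1 and 1.19-fold for Lrp1b and Lrp2. The median of the 9 was 1.09-fold, and that of all 15131 genes tested was 1.11-fold. The latter takes in genes down to a mean of 10 reads. Each receptor was also set beside genes whose mean reads lay within 1.5-fold of its own. A smaller range was found in 94.4% of those genes for Lrp1b, 84.1% for Lrp2 and 81.9% for Lrp1. The share was 66.2% for Sorl1, 64.2% for Sorcs1, 35.8% for Sorcs2, 34.4% for Lrp4, 21.3% for Sorcs3 and 18.4% for Sort1. Lrp1b and Lrp1 varied by more than counting error (Pearson chi-square, Benjamini-Hochberg adjusted p = 0.0213 for Lrp1b and 1.06e-05 for Lrp1, over the 15131 genes whose mean was at least 10 reads). These are 2 of 9, where 8.69% of all genes were called. The test gives more power to genes with more reads, and Lrp1 has the most of the 9. Against the dispersion trend, that is the spread of genes of like abundance, 0 of the 9 were called, where 0.311% of all genes were. By the chi-square test the adjusted p was 0.677 for Lrp1b and 0.96 for Lrp1. Without adjustment Lrp1b alone of the receptors fell under 0.05 (chi-square p = 0.0243), as did 6.15% of all genes.

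Replicate 2 was the highest library for 4 of the 9 receptors, Lrp1b, Lrp2, Sorcs1 and Sorcs3 (33.0% of all genes were highest there), and the lowest for Lrp1 and Sorcs2, 2 of the 9 (38.5% of all genes). Replicate 3 was also highest for 4 of the 9 (31.2% of all genes), and replicate 1 for 1 (35.8%). Replicate 1 was lowest for 5 of the 9 (26.6% of all genes), and replicate 3 for 2 (35.0%). The difference of replicate 2 from the others is given with the GC content of each gene's longest transcript. In replicate 2 against the mean of the others, Lrp1b (43.5% GC in its longest transcript) lay at 0.24 on the log2 scale, Sorcs1 (46.8%) at 0.14 and Lrp2 (49.1%) at 0.20. Sorcs3 (50.1%), Sorl1 (50.7%) and Sort1, which is close to them in GC, lay at 0.05, −0.01 and −0.0004. The GC-rich Lrp4 (54.7%), Sorcs2 (57.0%) and Lrp1 (57.9%) lay at −0.03, −0.06 and −0.11. Medians over groups of genes are set beside these values. A median of many genes scatters less than a single gene, so their ranges cannot be compared. Over 10852 genes that averaged at least 100 reads and were cut into 10 equal groups by GC content, the median of replicate 2 minus the others went from 0.07 in the group with the least GC to −0.09 in that with the most. Lrp1b and Lrp2 lay above the medians of the groups that hold their GC content, which were 0.05 and 0.003. With size factors set within bins of GC content and exon length, the values in replicate 2 were −0.03 for Lrp1, 0.18 for Lrp1b and for Lrp2, and 0.11 for Sorcs1. The part of GC content in these values was not tested. Neither call then held (adjusted p = 0.698 for Lrp1 and 0.2 for Lrp1b against counting error), and without replicate 2 neither held (0.591 and 0.955). Lrp1b also lost its call without replicate 3 (adjusted p = 0.0574), where Lrp1 was still called.

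**Figure D4:**
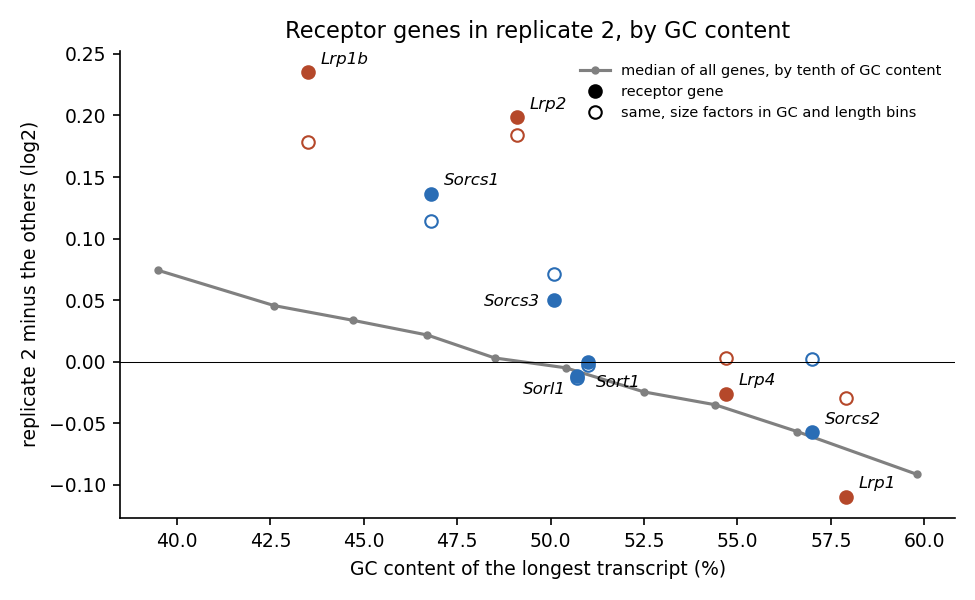
Replicate 2 minus the mean of the other libraries (log2 of scaled reads) against the GC content of the longest transcript for the 9 receptor genes (filled), for the same genes with size factors in GC and length bins (open), and for the median of all genes in 10 groups of GC content (grey). Of the filled points Lrp1b, at 43.5% GC, is highest and Lrp1, at 57.9% GC, lowest. Lrp1b and Lrp2 are among the filled points above the grey line. That line was taken without the bins, so it is no reference for the open points.

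Genes known to work with the receptors are given by lists, as levels in the same libraries. Detection is by deposited values and is to be read beside the 59.2% of protein coding genes detected. A share near that one shows nothing particular to a list. Of 13 other LDL receptor family genes 11 were detected, with a median level of 6.98 CPM per kilobase. Lrp11 led at 44.6 ± 1.03 CPM per kilobase, followed by Lrp3 at 24.8 ± 2.61 and Vldlr, a receptor of reelin and apoE, at 20.9 ± 0.43. Lrp8, the other reelin receptor, lay at 11.4 ± 0.14. Ldlrad1 and Ldlrad2 had 1 read each.

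Chaperones and regulators of receptor turnover were detected in 4 of 6 cases. Lrpap1, which encodes the chaperone RAP that keeps ligands off newly made receptors, lay at 27.6 ± 0.92 CPM per kilobase, between Lrp1 and Sort1. Hspa13 lay at 12.4 ± 0.42 and the LRP chaperone gene Mesd, listed under its older name Mesdc2, at 5.82 ± 0.36.

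All 13 enzymes that cleave the receptors or their cargo were detected. The gamma-secretase subunits Psenen and Ncstn lay at 27.2 ± 0.80 and 21.8 ± 0.64 CPM per kilobase and the beta-secretase Bace1 at 21.02 ± 0.61. Furin, the Golgi protease that cuts the Lrp1 precursor, lay at 3.01 ± 0.20. Medians of the receptors' cytoplasmic partners lay above the levels of the 9 receptors other than Lrp1 and Sort1. All 16 adaptors were detected, with a median of 19.3 CPM per kilobase, led by the scaffold Mapk8ip1 (82.2 ± 3.57), Apbb1 (66.3 ± 1.84), which encodes FE65, and Apba2 (58.5 ± 1.48). All 15 genes of sorting coats and the retromer, the complex that carries sorting receptors out of endosomes, were detected with a median of 20.8. Vps26b (51.7 ± 0.15) and Vps35 (47.05 ± 0.31), both of the retromer, led them, with the adaptor subunit Ap1b1 at 29.98 ± 0.57.

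Ligands spanned a wide range. Of 27 ligands of the LDL receptor family 24 were detected by deposited values and 21 by recovered reads, with a median of 4.74 CPM per kilobase. Apoe led at 573 ± 16.8, with the metallothioneins Mt2 at 463 ± 40.8 and Mt1 at 260 ± 1.48. Plau had 12 reads in all, and the Lrp4 ligands Sost and Dkk1 had 4 and 3. Of 17 ligands and partners of VPS10 receptors 13 were detected, led by Psap (421 ± 17.5), App (97.3 ± 1.76) and Gria1 (41.2 ± 1.98). Grn, the gene of the sortilin ligand progranulin, lay at 14.1 ± 1.03 and Bdnf at 2.18 ± 0.07, while Gdnf had 34 reads in all and lay below 1 CPM. In the agrin receptor complex and among megalin partners 5 of 9 genes were detected. Agrn, the ligand of Lrp4, lay at 21.1 ± 0.34 CPM per kilobase, Gipc1 at 26.8 ± 2.65 and Ank3 at 9.27 ± 0.27. The kinase gene Musk, which Lrp4 activates in muscle, had 3 reads, Rapsn 9, the megalin co-receptor Cubn 19 and Stab1 47.

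Of 113 related genes, each counted once, 104 had enough reads to be tested for variation between libraries. Counting error was exceeded by 21 of them, against 8.69% of all genes, and the dispersion trend by none, against 0.311%. As for the receptors, the test against counting error gives more power to genes with more reads. The share called among genes of like reads was not taken. Lrp3 had the smallest adjusted p against the trend among the related LDL receptor genes (0.157); its reads were 2323, 1912 and 2333, lowest in replicate 2, like those of Lrp1.

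**Figure D5:**
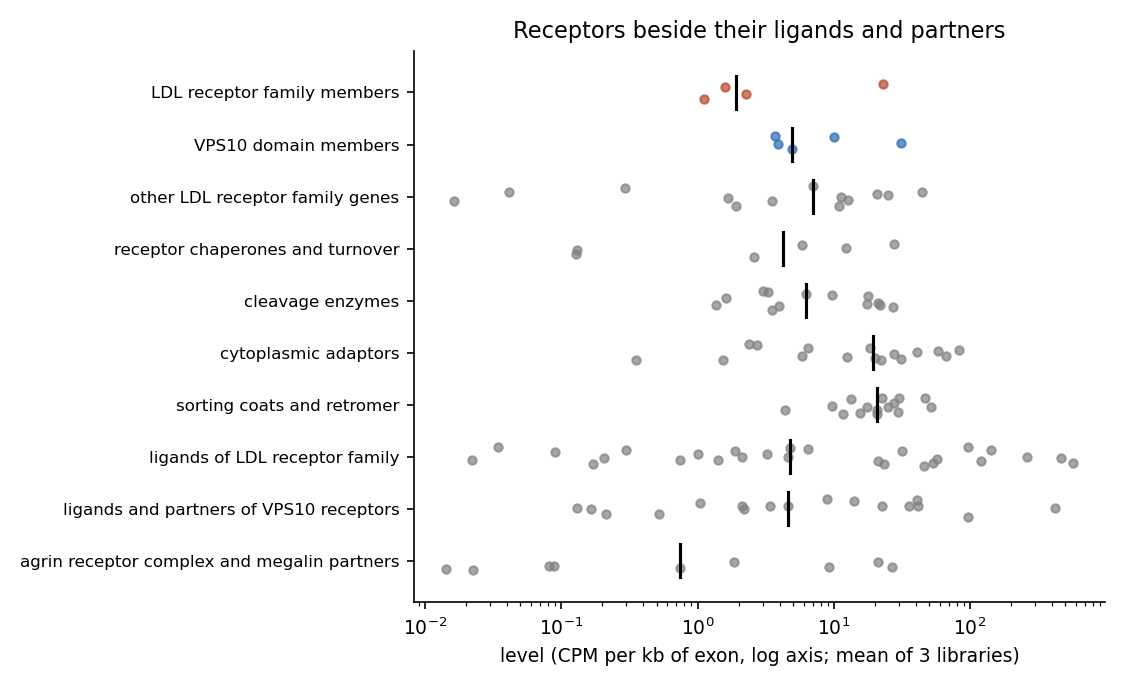
Level of each gene (CPM per kilobase, log axis, mean of 3 libraries) in the lists of receptors, ligands and partners, with the median of each list as a black line. The medians of adaptors (19.3) and of sorting coats and retromer (20.8) lie above those of the LDL receptor family members (1.92) and VPS10 members (4.97).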

How the data were processed

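RNA sequencing of 3 libraries of 1 group was used. The authors deposited 1 log2 value per gene and library; FastQC, HISAT2, featureCounts, DESeq2 and the build GRCm38 are named, without role or order, per the submitters' processing notes. The sources used here give no versions or settings for them. Deposited values have the form of a regularized log, and a row at 0 in all 3 files (21897 of 47593) stands for no reads. Reads were recovered by inverting a penalised (ridge) negative binomial model of 6 parameters: 99.9% of 77088 values lay less than 0.1 from a whole read (20% by chance), at most 0.0158 away for the 9 members. Refitting gave the deposited values within 0.001 for 100% of genes. Recovered total reads were 18683959 to 18885652; 3 reads equal 0.16 CPM. Deposited log2 values gave detection (1 CPM) and pair differences. Levels had been planned from deposited values too, but are printed from recovered reads, a choice made after the data were seen, because the deposited scale shrinks the spread between libraries: for Lrp1b the mean is 1.58 CPM per kilobase either way, with an SD of 0.15 from recovered reads and 0.03 from deposited values.

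GENCODE M21 (GRCm38) gave lengths, GC content and positions for 45224 names. Variation was tested with a Pearson chi-square on 2 degrees of freedom, median-of-ratios size factors and a dispersion trend in 20 bins of abundance, which was tested on simulated data. Alternatives covered the scale, length, pseudocount, filter, threshold, normalization and left-out libraries. Named genes were the 9 members, the 3 highest of each list and those under 1 CPM; the markers named are the 2 highest of a list and those without reads, and others were chosen after their values were seen. Some genes that the rule names are not reported here. The members and lists were chosen with earlier results of these data known. Software was Python 3.11.15, numpy 2.4.6, scipy 1.17.1 and pandas 2.3.3.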

Additional observations from a re-analysis of the deposited data

How the results depend on the processing

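The calls of variation between libraries depended on the processing. When size factors were set in bins of GC content and length, 736 genes exceeded counting error and 71 the dispersion trend, against 1315 and 47, and 0 of the 9 receptor genes exceeded counting error, against 2. Leaving out 1 library gave 331 to 1085 genes beyond counting error, 8 to 30 beyond the trend (8 without replicate 1, 18 without replicate 2) and 0 to 2 receptor genes beyond counting error; the cause was not tested, beyond that fewer libraries entered. The log2 ratio of the summed LDL receptor family members to the summed VPS10 members turned from −0.96 to 0.15 in CPM with no division by length. That alternative was chosen after seeing the data. Of 616 alternative values 583 were the same, 27 moved, 5 lost their call and 1, that ratio, reversed, and the 324 alternative pair differences all kept their direction. With another pseudocount or a library left out, that direction was fixed in advance. On deposited values each of the 36 pairs had the same sign in all 3 libraries. Of the moved values, 17 were levels per kilobase under another length, as follows from its construction. No paired analysis was possible because there is only 1 group. Depth limits the scarce genes: 3 reads equal 0.16 CPM.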
